A study of Mus musculus with 12 samples.

Results

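Collagen chains are the products of the Col genes, and the chains were taken as all genes of the count table whose mouse symbol has the form Col, a type number, the letter a and a chain number. The rule found 44 of the 55357 genes of the table, and it used no measured value. They were described in liver RNA of 12 male C57BL/6J mice whose Ppara gene carried loxP sites on both copies (PPARa fl/fl). The 4 WT chow and 3 WT CDAHFD mice carried no Cre (AlbuminCre +/+), and the 2 KO chow and 3 KO CDAHFD mice carried 1 Cre transgene (AlbuminCre Tg/+), which the albumin promoter drives in hepatocytes, so that other liver cells keep Ppara. These group sizes are those of the labels and differ from the equal groups that the study's methods state. Diets ran for 6 weeks from 7 weeks of age: standard chow, or CDAHFD, a diet rich in fat that lacks choline and gives amino acids in place of protein, used to bring on steatohepatitis. Nothing in the labels ties libraries to a cage, litter or day, and p-values measure the spread between these libraries.

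Collagens are secreted proteins built of alpha chains that wind into a triple helix, and the helix needs hydroxylated proline and lysine. Fibrillar chains form the banded fibrils of scar tissue, with types I and III the main ones of fibrotic liver, and basement membrane chains (type IV) form sheets under epithelium and endothelium. FACIT chains (fibril-associated collagens with interrupted triple helices) coat fibrils, type VI chains form beaded filaments, type VIII forms short chain networks, multiplexins sit in basement membranes, and transmembrane collagens stay anchored in cells. In fibrotic liver most fibrillar collagen is known to come from stellate cells and portal fibroblasts, while hepatocytes are a known source of type XVIII collagen. PPARα is a nuclear receptor that drives fatty acid oxidation in hepatocytes.

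The promoters of 5 chains are shown: those of Col1a2 and Col3a1, type I and III chains that rose together, of the type IV pair that shares a promoter region, and of the chain that fell most by fold among those above 1 CPM in each group. Each is 250 bases before to 50 after the RefSeq start on GRCm38.p6, read 5′ to 3′ on the gene's strand, with CCAAT and TATAAA on either strand in capitals.
Col1a2 (chr6:4505368-4505667, plus strand): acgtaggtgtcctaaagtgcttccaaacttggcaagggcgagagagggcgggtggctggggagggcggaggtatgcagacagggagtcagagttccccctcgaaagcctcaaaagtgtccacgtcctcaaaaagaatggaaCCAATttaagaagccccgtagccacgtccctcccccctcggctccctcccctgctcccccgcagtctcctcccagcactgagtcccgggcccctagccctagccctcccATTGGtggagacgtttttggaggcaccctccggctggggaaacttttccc
Col3a1 (chr1:45311288-45311587, plus strand): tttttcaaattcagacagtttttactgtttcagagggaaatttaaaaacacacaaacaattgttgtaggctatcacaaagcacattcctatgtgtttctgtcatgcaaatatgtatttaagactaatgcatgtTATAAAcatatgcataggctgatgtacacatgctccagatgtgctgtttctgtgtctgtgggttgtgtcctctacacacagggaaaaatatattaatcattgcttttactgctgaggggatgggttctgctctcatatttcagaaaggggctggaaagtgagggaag
Col4a1 (chr8:11312777-11313076, minus strand): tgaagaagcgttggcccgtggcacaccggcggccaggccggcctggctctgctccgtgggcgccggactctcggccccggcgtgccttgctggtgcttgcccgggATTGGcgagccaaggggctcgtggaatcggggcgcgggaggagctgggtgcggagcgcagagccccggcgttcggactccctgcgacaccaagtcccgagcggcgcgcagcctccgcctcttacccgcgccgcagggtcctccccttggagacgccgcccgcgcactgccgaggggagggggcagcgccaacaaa
Col4a2 (chr8:11312555-11312854, plus strand): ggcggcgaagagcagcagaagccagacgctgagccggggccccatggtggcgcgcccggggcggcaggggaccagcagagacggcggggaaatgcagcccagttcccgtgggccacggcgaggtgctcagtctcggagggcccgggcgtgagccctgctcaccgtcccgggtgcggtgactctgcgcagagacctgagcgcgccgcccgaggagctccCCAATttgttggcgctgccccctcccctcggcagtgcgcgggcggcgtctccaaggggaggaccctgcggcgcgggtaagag
Col27a1 (chr4:63215162-63215461, plus strand): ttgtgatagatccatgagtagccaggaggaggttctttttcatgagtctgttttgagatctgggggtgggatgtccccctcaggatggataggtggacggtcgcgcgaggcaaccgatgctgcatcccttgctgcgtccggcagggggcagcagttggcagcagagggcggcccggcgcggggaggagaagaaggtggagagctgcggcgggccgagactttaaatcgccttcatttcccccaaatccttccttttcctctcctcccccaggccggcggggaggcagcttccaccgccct

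The Col1a2 window held CCAAT 109 bases before its start and again, on the other strand, at the start itself, and the Col3a1 window held TATAAA 117 bases before its start. Col4a1 and Col4a2 lie head to head, their starts are 21 bases apart, and 78 bases of the windows (chr8:11312777-11312854) are the same DNA read on opposite strands. Neither motif occurred in the Col27a1 window, which held GGGCGG, the GC box, in 2 places. GGGCGG, not marked in capitals, was also in the windows of Col1a2 (2 places), Col4a1 (1) and Col4a2 (3), and was absent from that of Col3a1. The RefSeq table held 38 promoters of 35 of the 44 collagen genes. CCAAT was in 34.2% of them and in 37.4% of all 32851 promoters, TATAAA in 13.2% and 13.6%, and GGGCGG in 60.5% and 35.7%. All 3 motifs were searched on both strands, and a match is a description of the letters.

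Of the 44 chains, 36 had enough counts to be tested, and 8 stayed below 10 counts in every library and are given no fold change. Col26a1 was at 0 in all 12 libraries, which allows up to 3 counts in each. Col19a1 reached 1 count, Col2a1 (the cartilage fibril chain) and Col9a1 reached 2, Col10a1 and Col11a1 reached 3, Col6a4 reached 6 and Col17a1 reached 8. The highest Col17a1 counts, 6, 6, 6 and 8, were those of the WT chow libraries, against at most 5 elsewhere. The 36 tested comprised 9 of 11 fibrillar, 6 of 6 basement membrane, 7 of 9 FACIT, 5 of 6 beaded filament, 2 of 3 short chain, 2 of 2 multiplexin and 3 of 4 transmembrane chains, with Col7a1 and Col28a1 of the 3 other chains.

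Libraries held 29906785 to 43551003 counts. Ppara, the targeted gene, was at 120.1, 96.2, 238 and 226 CPM (counts scaled to a common library total by the trimmed mean of M values, TMM) in WT chow, 59.5, 75.5 and 73.5 in WT CDAHFD, 14.4 and 38.7 in KO chow and 36.3, 20.7 and 51.9 in KO CDAHFD. It was lowest in the KO libraries, and KO chow was below WT chow by 2.68 ± 0.50 on the log2 scale (SE; edgeR adjusted p = 0.00111), or by 3.56 without KO chow replicate 2. The liver label was matched by 8 hepatocyte genes such as Alb, which took 5.78% to 9.27% of all counts. WT chow replicate 1 stood apart from the other WT chow libraries: it was the highest of the 4, by a wide gap, for 10 collagen chains, and its 5 smooth muscle and myofibroblast genes (Acta2, Tagln, Myl9, Cnn1 and Actg2) summed to 52.2 CPM against a group median of 3.79. The results below that rest on WT chow are given with and without it where they moved.

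All 44 chains together took 0.137% to 0.157% of the counts in WT chow, 0.330% to 0.344% in WT CDAHFD, 0.242% to 0.244% in KO chow and 0.337% to 0.476% in KO CDAHFD. The groups other than WT CDAHFD and KO CDAHFD did not overlap. Fibrillar chains made up 13.5% ± 2.0 (SD, n = 4) of the collagen reads in WT chow, 41.4% ± 1.1 (n = 3) in WT CDAHFD, 41.7% ± 5.9 (n = 2) in KO chow and 46.9% ± 3.2 (n = 3) in KO CDAHFD. Multiplexins went from 77.7% ± 3.5 to 33.2% ± 2.2, 31.3% ± 4.9 and 25.8% ± 5.4, and almost all of that was Col18a1, whose share was 77.0% in WT chow and 24.6% in KO CDAHFD. Basement membrane chains went from 3.86% ± 0.74 to 11.6% ± 0.94, 12.8% ± 1.7 and 12.3% ± 1.6. Reads were not corrected for gene length in these shares. Per kb of exon, Col18a1 was first of the 44 in all groups, and Col3a1 went from rank 7 in WT chow to rank 2 in each other group.

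**Figure D1:**
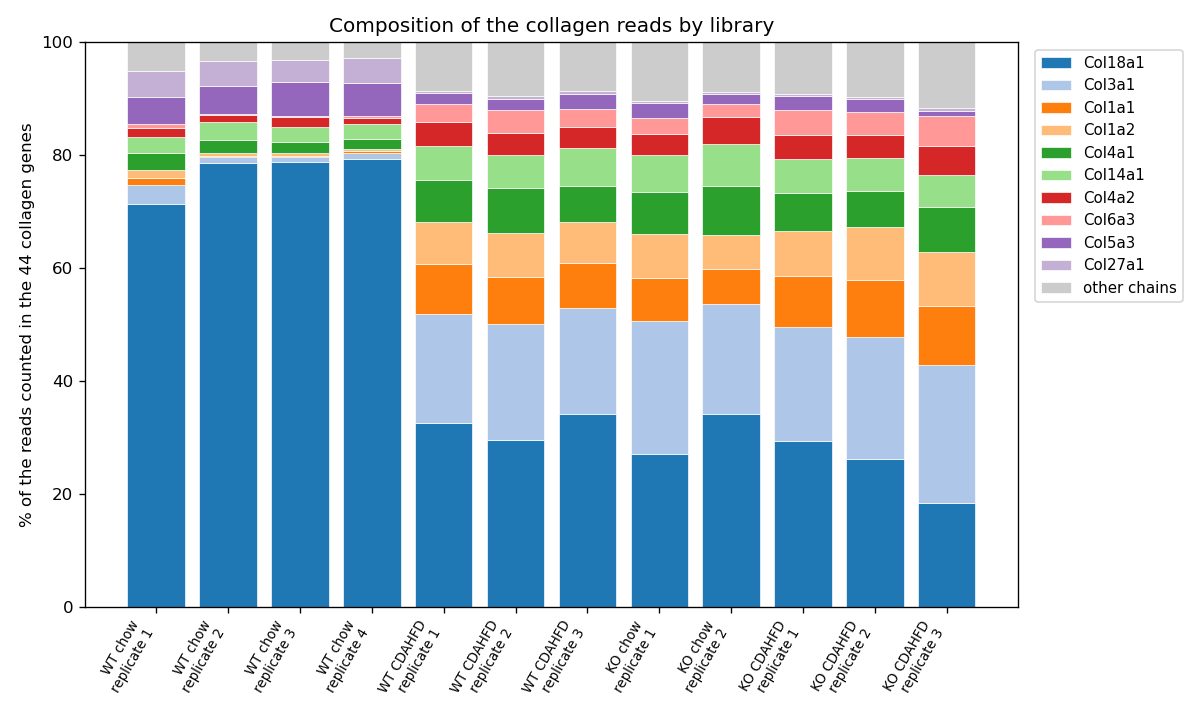
Share of the reads counted in the 44 collagen genes that each chain took, in percent, with 1 bar for each of the 12 libraries in the 4 groups; the 10 chains with the largest shares are coloured and the others are grey. Col18a1 took 71.4% to 79.4% of the collagen reads in WT chow and 18.3% to 34.2% elsewhere, where Col3a1, Col1a1, Col1a2, Col4a1 and Col14a1 took most of the rest.

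Set against WT chow, WT CDAHFD had 20 of the 36 tested chains higher and 7 lower, KO chow had 18 and 5, and KO CDAHFD had 24 and 6 (edgeR's quasi-likelihood test, adjusted p under 0.05 over 17358 genes). Over all genes tested the called share was 51.1% in WT CDAHFD (26.1% higher, 25% lower), 39% in KO chow (22% higher, 17% lower) and 52.4% in KO CDAHFD (26.9% higher, 25.4% lower). In the order WT CDAHFD, KO chow, KO CDAHFD, the median log2 fold change of the 36 was 1.7, 1.31 and 2.35, beside -0.05, 0.00 and -0.04 over all genes, and with Col22a1 at its bound the first of these was 1.64. Some chains passed the filter through a group in which they were high, so these counts and medians describe the tested chains and not all 44. Libraries of the groups did not overlap for 20 higher and 6 lower chains in WT CDAHFD (28% and 27.4% of all genes), 19 and 5 in KO chow (27.2% and 23%) and 22 and 4 in KO CDAHFD (26.7% and 24.8%). Without WT chow replicate 1 the counts were 22 and 6, 20 and 5, and 25 and 6. The 7 lower chains in WT CDAHFD became 3 without WT CDAHFD replicate 1 and 4 without replicate 2 or 3, and the 5 in KO chow became 3 without KO chow replicate 2. Scaled by library size alone, which moved the median over all genes to 0.51, 0.40 and 0.57 on the log2 scale, they were 22 and 2, 19 and 3, and 24 and 3, and the higher share of all called genes went from 51% to 88.6%, from 56.4% to 86% and from 51.4% to 89.9%. The 3 comparisons share the WT chow libraries. In whole liver, more cells of a type and more RNA per cell cannot be told apart.

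**Figure D2:**
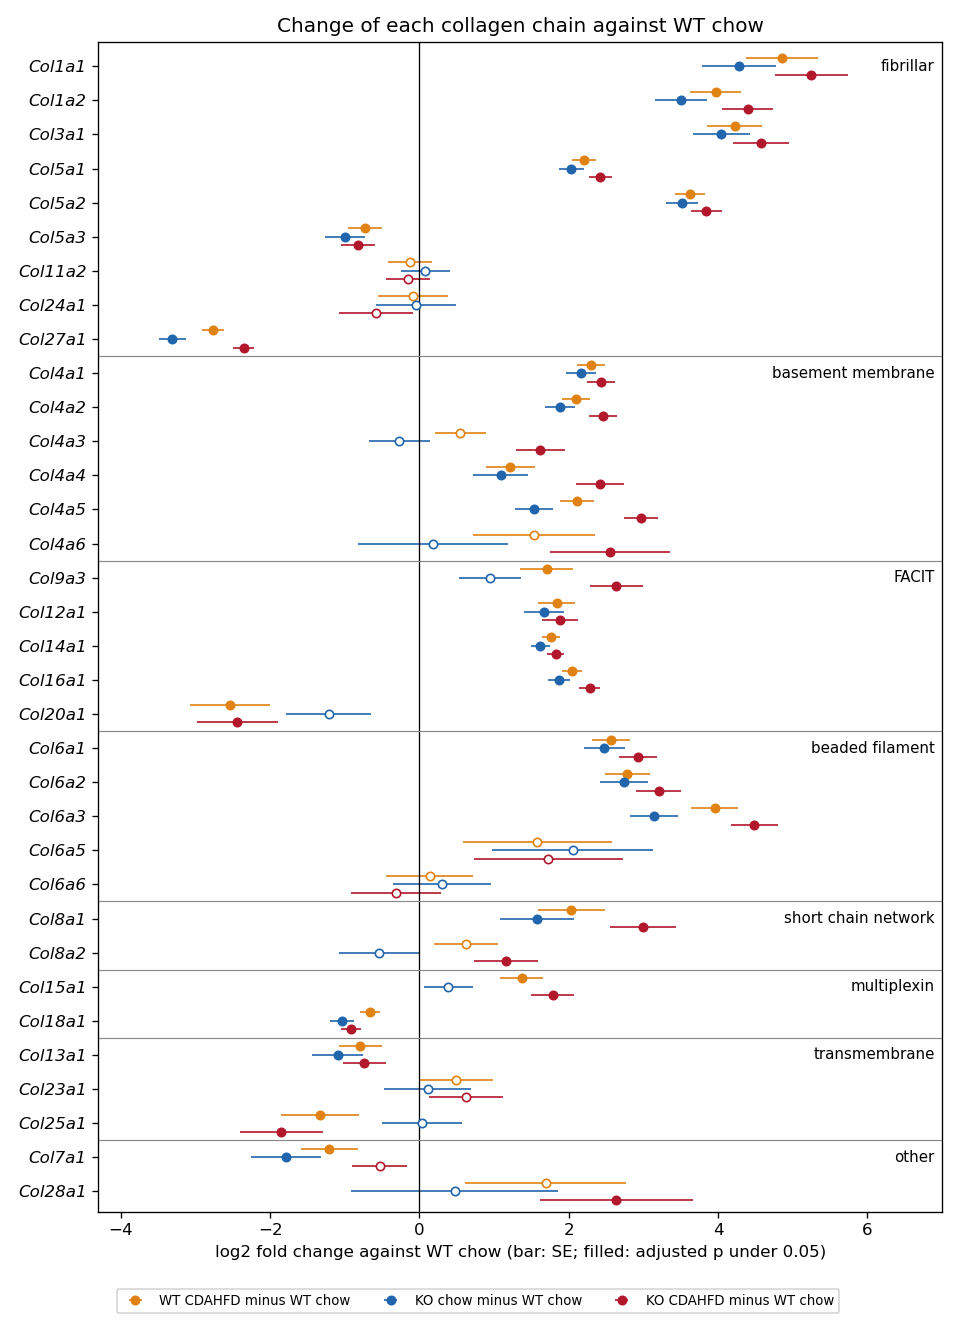
Log2 fold change against WT chow of each tested chain, by class, in WT CDAHFD, KO chow and KO CDAHFD; bars are standard errors and filled points passed an adjusted p of 0.05. Col1a1, Col1a2, Col3a1, Col5a2 and Col6a3 lie between 3.14 and 5.25 in all 3 comparisons, and Col27a1 lies between -3.31 and -2.35; Col9a2 and Col22a1, with at most 1 count in WT chow, are not drawn.

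Of the 9 fibrillar chains tested, the same 5 rose in all 3 comparisons (Col1a1, Col1a2, Col3a1, Col5a1 and Col5a2), the same 2 fell (Col5a3 and Col27a1), and Col11a2 and Col24a1 were called in none. Col1a1 (GRCm38, as for all positions here, chromosome 11, 94936224 to 94953042) and Col1a2 (chromosome 6, 4504814 to 4541544) encode the alpha chains of type I collagen, the main protein of scar. Col1a1 was at 20.3, 4.44, 4.43 and 4.72 CPM in WT chow, 259.8, 244 and 231 in WT CDAHFD, 180.0 and 149 in KO chow, and 273, 300.1 and 394 in KO CDAHFD. The 8 libraries of the other groups were all above the 4 of WT chow, and within WT chow replicate 1 stood over 3 libraries that were nearly equal. The log2 fold change of Col1a1 (± SE, as below) was 4.86 ± 0.49 (edgeR adjusted p = 4.08e-06) in WT CDAHFD, 4.28 ± 0.50 (edgeR adjusted p = 2.66e-05) in KO chow and 5.25 ± 0.49 (edgeR adjusted p = 2.22e-06) in KO CDAHFD. Without WT chow replicate 1 the Col1a1 changes were 5.78, 5.20 and 6.19. Col1a2 was at 26.7, 11.4, 9.57 and 8.48 CPM in WT chow, 226, 224 and 209 in WT CDAHFD, 178 and 140.2 in KO chow, and 243, 280.2 and 365 in KO CDAHFD, again with no overlap. Col1a2 rose by 3.97 ± 0.34 (edgeR adjusted p = 1.02e-06), 3.5 ± 0.35 (edgeR adjusted p = 7.96e-06) and 4.4 ± 0.34 (edgeR adjusted p = 4.8e-07) in the same order.

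Col3a1 (chromosome 1, 45311538 to 45349706) encodes the chain of type III collagen, the fine fibril of early scar and of the reticulin net. Col3a1 was at 61.03, 21.9, 18.6 and 21.01 CPM in WT chow, 576, 596 and 542 in WT CDAHFD, 547 and 464 in KO chow, and 612, 643 and 930.3 in KO CDAHFD. Each library outside WT chow was at least 464 CPM, and KO CDAHFD replicate 3 was the highest of all. The changes of Col3a1 were 4.22 ± 0.37 (edgeR adjusted p = 1.33e-06), 4.05 ± 0.39 (edgeR adjusted p = 5.27e-06) and 4.57 ± 0.38 (edgeR adjusted p = 7.13e-07), and without WT chow replicate 1 they were 4.82, 4.64 and 5.19. Col5a1 and Col5a2 encode chains of type V collagen, which starts and narrows type I fibrils. Col5a1 was at 11.2, 13, 10.3 and 9.13 CPM in WT chow, 50.3, 49.2 and 51.7 in WT CDAHFD, 43.9 and 45.7 in KO chow, and 49.8, 50.5 and 75.7 in KO CDAHFD. Col5a2, which lies next to Col3a1 on chromosome 1 (45374321 to 45503282), was at 5.36, 3.37, 2.901 and 3.899 CPM in WT chow, 47.1, 52.1 and 43.6 in WT CDAHFD, 46.7 and 41.9 in KO chow, and 49.1, 46.9 and 70.6 in KO CDAHFD. Neither type V chain overlapped with WT chow. Col5a2 rose by 3.62 ± 0.20 (edgeR adjusted p = 4.13e-08), 3.52 ± 0.21 (edgeR adjusted p = 1.75e-07) and 3.84 ± 0.20 (edgeR adjusted p = 2.7e-08), and Col5a1 by 2.21 ± 0.16, 2.04 ± 0.17 and 2.43 ± 0.16.

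The fibrillar chains that fell were Col27a1 and Col5a3. Col27a1 (chromosome 4, 63214004 to 63334991), a chain best known from cartilage, was at 81.9, 90.5, 79.2 and 84.8 CPM in WT chow, 11.1, 12.7 and 13.3 in WT CDAHFD, 9.82 and 7.18 in KO chow, and 14.8, 14.8 and 19.7 in KO CDAHFD. Its WT chow libraries lay within 79.2 and 90.5 CPM and the others reached at most 19.7. Col27a1 fell by 2.76 ± 0.15, 3.31 ± 0.18 and 2.35 ± 0.15 on the log2 scale. Col5a3, the third gene of type V collagen, was at 86.8, 96.3, 122 and 111 CPM in WT chow, 57.3, 56.1 and 74.97 in WT CDAHFD, 61.5 and 42.9 in KO chow, and 74.3, 65.2 and 36.6 in KO CDAHFD. Its changes were -0.73 ± 0.22, -1.0 ± 0.26 and -0.83 ± 0.23, and the WT chow libraries lay above those of the other groups, which overlapped one another. The Col5a3 calls were lost in all 3 comparisons when libraries were scaled by size alone, in KO chow without its replicate 2, and in WT CDAHFD without its replicate 1 or 2. Col11a2 ranged from 1.05 to 2.37 CPM over the 12 libraries and Col24a1 from 0.155 to 0.661 CPM, with groups that overlapped.

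**Figure D3:**
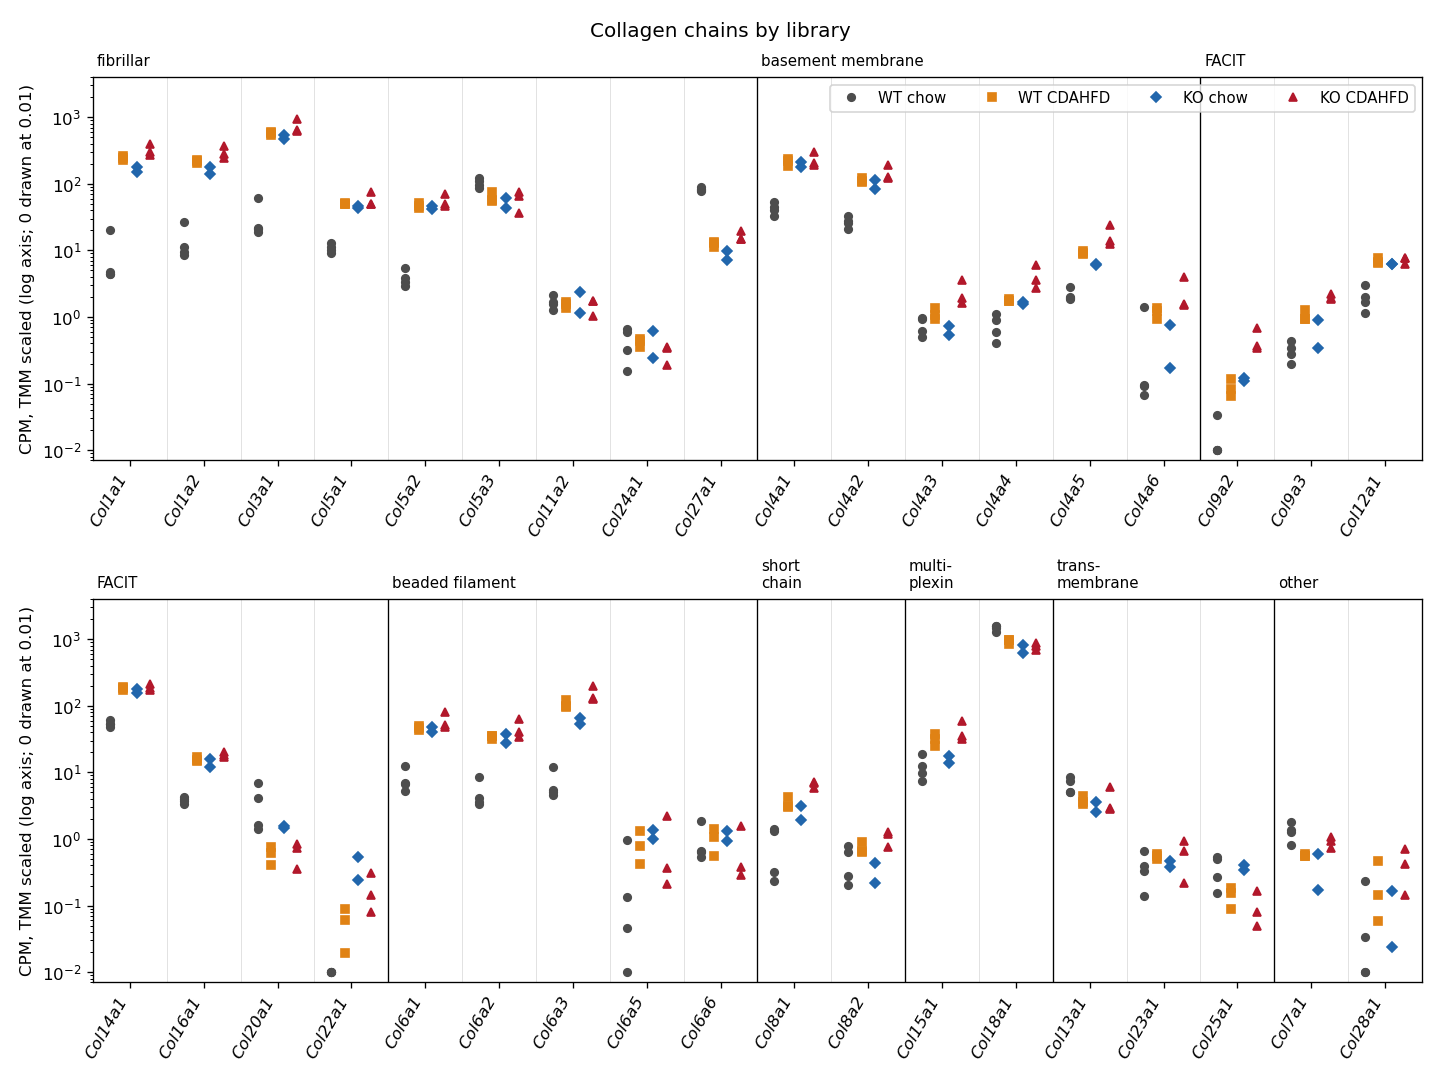
CPM of the 36 tested chains on a log axis, with 1 point for each of the 12 libraries, coloured by group and ordered by class; values of 0 are drawn at 0.01. WT chow replicate 1 is the high point of its group for Col1a1 (20.3 CPM) and Col3a1 (61.0 CPM), and Col27a1 and Col18a1 are the abundant chains that are highest in WT chow.

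All 6 type IV chains, the network of basement membranes, were called higher in KO CDAHFD, and 4 of them (Col4a1, Col4a2, Col4a4 and Col4a5) in WT CDAHFD and in KO chow as well. Col4a1 (chromosome 8, 11198423 to 11312826) was at 53.3, 44.9, 41.05 and 32.8 CPM in WT chow, 219, 232 and 184 in WT CDAHFD, 176 and 209 in KO chow, and 204, 190.1 and 301 in KO CDAHFD. Col4a2 (chromosome 8, 11312805 to 11449287), its partner from the shared promoter region, was at 27.5, 25.5, 33.2 and 21.1 CPM in WT chow, 124, 112 and 108 in WT CDAHFD, 84.3 and 114 in KO chow, and 129, 121 and 194 in KO CDAHFD. For both chains the WT chow libraries lay below all others. Col4a1 rose by 2.3 ± 0.19 (edgeR adjusted p = 6.95e-07), 2.16 ± 0.20 (edgeR adjusted p = 4.49e-06) and 2.43 ± 0.19 (edgeR adjusted p = 4.38e-07), and Col4a2 by 2.09 ± 0.19, 1.89 ± 0.20 and 2.46 ± 0.19. The 2 genes share 22 bases of exon, where reads of these non-directional libraries could be given to either.

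Col4a5 lies on the X chromosome, head to head with Col4a6, and its chain joins those of Col4a3 and Col4a4 in the membrane of the kidney glomerulus. Col4a5 was at 2.83, 1.92, 1.97 and 1.83 CPM in WT chow, 8.87, 9.77 and 9.05 in WT CDAHFD, 6.06 and 6.35 in KO chow, and 12.5, 13.8 and 23.8 in KO CDAHFD. WT chow was lowest, KO chow next, WT CDAHFD above it and KO CDAHFD highest, with no overlap between neighbours. Its changes were 2.11 ± 0.23 (edgeR adjusted p = 7.64e-06), 1.54 ± 0.25 (edgeR adjusted p = 0.000376) and 2.97 ± 0.23 (edgeR adjusted p = 4.38e-07). Col4a4 was at 0.893, 0.598, 1.1 and 0.413 CPM in WT chow, 1.72, 1.75 and 1.84 in WT CDAHFD, 1.69 and 1.55 in KO chow, and 2.69, 3.58 and 5.97 in KO CDAHFD. Col4a4 rose by 1.22 ± 0.33, 1.09 ± 0.37 and 2.42 ± 0.32, and the call in KO chow was lost in 5 of 19 alternatives, among them without either KO chow library.

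Col4a3 was at 0.621, 0.976, 0.934 and 0.504 CPM in WT chow, 1.37, 1.09 and 0.918 in WT CDAHFD, 0.544 and 0.728 in KO chow, and 1.649, 1.898 and 3.57 in KO CDAHFD. Only KO CDAHFD was called above WT chow for Col4a3, by 1.62 ± 0.33 (edgeR adjusted p = 0.00121), and an overlapping gene on the other strand, C430014B12Rik, held 46.4% as many counts, so its reads and those of Col4a3 cannot be fully told apart. Col4a6 was at 1.398, 0.0944, 0.0667 and 0.0917 CPM in WT chow, 1.37, 1.24 and 0.918 in WT CDAHFD, 0.761 and 0.1698 in KO chow, and 1.53, 1.58 and 4.02 in KO CDAHFD. The Col4a6 change in KO CDAHFD was 2.55 ± 0.80. Its size depended on 2 libraries: without WT chow replicate 1 the value was 4.82, and without KO CDAHFD replicate 3 it was 1.93 and no longer passed. Without WT chow replicate 1, Col4a6 was also called higher in WT CDAHFD (3.78) and in KO chow (2.42).

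Of the 7 FACIT chains tested, 6 were higher in WT CDAHFD and KO CDAHFD and 5 in KO chow. Col14a1 (chromosome 15, 55307750 to 55520803), which regulates fibril growth, was at 52.9, 61.7, 52.7 and 47.7 CPM in WT chow, 182, 171 and 195 in WT CDAHFD, 154 and 177 in KO chow, and 183, 176 and 214 in KO CDAHFD. Spread within each Col14a1 group was small, and the log2 fold changes were 1.76 ± 0.11 (edgeR adjusted p = 1.24e-07), 1.62 ± 0.12 (edgeR adjusted p = 1.1e-06) and 1.83 ± 0.11 (edgeR adjusted p = 9.24e-08). Col16a1 was at 4.23, 3.68, 3.301 and 4.04 CPM in WT chow, 16.9, 14.8 and 15.6 in WT CDAHFD, 15.8 and 11.96 in KO chow, and 17.1, 18.3 and 20.1 in KO CDAHFD. Col12a1, a chain that bridges fibrils under load, was at 2.99, 1.13, 2.001 and 1.651 CPM in WT chow, 6.37, 7.65 and 6.75 in WT CDAHFD, 6.17 and 6.16 in KO chow, and 6.25, 7.57 and 7.66 in KO CDAHFD. Both were lowest in the 4 WT chow libraries. Col16a1 rose by 2.05 ± 0.14, 1.87 ± 0.15 and 2.28 ± 0.14, and Col12a1 by 1.84 ± 0.24, 1.67 ± 0.27 and 1.88 ± 0.24.

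Type IX chains, known from cartilage, were low but not absent. Col9a3 was at 0.194, 0.346, 0.433 and 0.275 CPM in WT chow, 1.27, 0.932 and 0.918 in WT CDAHFD, 0.897 and 0.3395 in KO chow, and 1.92, 2.19 and 1.85 in KO CDAHFD. Its changes were 1.71 ± 0.36 (edgeR adjusted p = 0.0016) in WT CDAHFD and 2.64 ± 0.35 (edgeR adjusted p = 4.45e-05) in KO CDAHFD, and KO chow was not called. Col9a2 had 0, 0, 1 and 0 counts in WT chow, 4, 6 and 3 in WT CDAHFD, 4 and 5 in KO chow and 15, 13 and 29 in KO CDAHFD. It was called higher in all 3 comparisons, and no fold is given against a single count. The KO chow call of Col9a2 was lost without either KO chow library. Col22a1, known from tissue junctions, had 0 counts in all 4 WT chow libraries, 3, 1 and 4 in WT CDAHFD, 9 and 22 in KO chow and 6, 3 and 13 in KO CDAHFD. Set against 3 counts over the WT chow group, Col22a1 was at least 14.5-fold higher in KO chow, at least 6.64-fold higher in KO CDAHFD and at least 2-fold higher in WT CDAHFD. Leaving out KO chow replicate 2 lowered the bound in KO chow to 8.92-fold, and leaving out KO CDAHFD replicate 3 lowered that in KO CDAHFD to 4.17-fold. Leaving out KO chow replicate 1 raised it to 19.4-fold. The WT CDAHFD call of Col22a1 was lost in 12 of 17 alternatives. The FACIT chain that fell was Col20a1, at 6.83, 4.06, 1.601 and 1.42 CPM in WT chow, 0.4098, 0.621 and 0.765 in WT CDAHFD, 1.44 and 1.55 in KO chow, and 0.849, 0.722 and 0.357 in KO CDAHFD. Within WT chow its values split into a higher and a lower pair. Col20a1 fell by 2.54 ± 0.53 in WT CDAHFD and by 2.44 ± 0.54 in KO CDAHFD, while KO chow was not called, and an overlapping gene on the same strand, BX649560.1, had more counts than Col20a1 itself.

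Of the type VI chains, which tie cells to the matrix around them, Col6a1, Col6a2 and Col6a3 rose in all 3 comparisons and Col6a5 and Col6a6 were called in none. Col6a3 (chromosome 1, 90765923 to 90843971) was at 12.2, 5.13, 4.54 and 5.37 CPM in WT chow, 97.8, 122 and 95.5 in WT CDAHFD, 66.2 and 53.4 in KO chow, and 129.9, 125 and 202 in KO CDAHFD. Its groups were ordered, from lowest, WT chow, KO chow, WT CDAHFD and KO CDAHFD, and none overlapped. Col6a3 rose by 3.95 ± 0.31 (edgeR adjusted p = 5.6e-07), 3.14 ± 0.32 (edgeR adjusted p = 1.02e-05) and 4.49 ± 0.32 (edgeR adjusted p = 2.26e-07). Col6a1 was at 12.6, 6.74, 6.97 and 5.23 CPM in WT chow, 43.7, 50.4 and 46.9 in WT CDAHFD, 48.2 and 39.8 in KO chow, and 48.6, 51.8 and 79.4 in KO CDAHFD. Its neighbour on chromosome 10, Col6a2, was at 8.58, 4.16, 3.601 and 3.35 CPM in WT chow, 31.7, 35.3 and 34.7 in WT CDAHFD, 37.9 and 27.99 in KO chow, and 33.9, 39.97 and 62.6 in KO CDAHFD. For these chains the 8 libraries of the other groups lay above all of WT chow. Col6a1 rose by 2.57 ± 0.25, 2.48 ± 0.27 and 2.92 ± 0.26, and Col6a2 by 2.78 ± 0.30, 2.74 ± 0.32 and 3.21 ± 0.30. Col6a5 ranged from 0 to 2.21 CPM and Col6a6 from 0.291 to 1.86 CPM. Their highest values in WT chow, 0.971 and 1.86 CPM, were both in replicate 1. Without that library, Col6a5 was called higher in all 3 comparisons. Its log2 fold change was then 4.24 for KO chow, 3.78 for WT CDAHFD and 3.95 for KO CDAHFD, so the missing call rested on WT chow replicate 1.

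Col8a1, a network chain of vessel walls, was at 1.32, 1.42, 0.233 and 0.321 CPM in WT chow, 2.97, 4.21 and 3.12 in WT CDAHFD, 3.1 and 1.92 in KO chow, and 5.84, 7.03 and 7.21 in KO CDAHFD. Col8a1 rose by 2.04 ± 0.44 (edgeR adjusted p = 0.00205), 1.58 ± 0.49 (edgeR adjusted p = 0.023) and 3.0 ± 0.44 (edgeR adjusted p = 0.000105), its WT chow libraries split into a higher and a lower pair, and the call in KO chow was lost in 3 of 19 alternatives, among them without KO chow replicate 1. Its partner Col8a2 lay between 0.200 and 1.26 CPM and was called in KO CDAHFD alone, by 1.17 ± 0.43, with libraries that overlapped those of WT chow and a call lost in 6 of 19 alternatives.

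Against WT chow, the multiplexins moved in opposite directions in both CDAHFD groups. Col18a1 (chromosome 10, 77052178 to 77166548), the source of endostatin, was at 1285, 1567, 1583 and 1488 CPM in WT chow, 969.5, 859 and 990.0 in WT CDAHFD, 631 and 811 in KO chow, and 886, 779.6 and 692 in KO CDAHFD. Every other library was below the lowest of WT chow. Col18a1 fell by 0.66 ± 0.13, 1.04 ± 0.16 and 0.91 ± 0.13. From KO chow to KO CDAHFD, Col18a1 did not fall: its change was 0.12 and was not called. The fall in WT CDAHFD depends on the scaling, since by library size alone its change was -0.10 and was not called, while the calls in KO chow and KO CDAHFD were kept. Col15a1, the multiplexin of vessel and nerve basement membranes, was at 18.6, 9.85, 12.5 and 7.48 CPM in WT chow, 31.6, 37.8 and 24.8 in WT CDAHFD, 17.8 and 13.9 in KO chow, and 34.7, 31.3 and 59.2 in KO CDAHFD. It rose by 1.37 ± 0.29 (edgeR adjusted p = 0.00155) in WT CDAHFD and 1.78 ± 0.29 (edgeR adjusted p = 0.000213) in KO CDAHFD. In KO chow the change of Col15a1 was 0.39 ± 0.33, which did not pass, with an interval (2 SE on each side) from -0.27 to 1.04.

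Transmembrane collagens gave no call upward. Col13a1, a chain of cell adhesions, was at 5.16, 7.46, 8.503 and 5.14 CPM in WT chow, 3.401, 4.39 and 3.605 in WT CDAHFD, 2.56 and 3.59 in KO chow, and 2.88, 2.83 and 6.09 in KO CDAHFD. Its changes were -0.79 ± 0.29, -1.1 ± 0.34 and -0.74 ± 0.29, and the calls were lost in 7, 4 and 13 of 19 alternatives. Col25a1 was at 0.155 to 0.535 CPM in WT chow, 0.0874 to 0.184 in WT CDAHFD, 0.340 and 0.408 in KO chow and 0.0485 to 0.167 in KO CDAHFD. It fell by 1.33 ± 0.52 in WT CDAHFD and 1.85 ± 0.56 in KO CDAHFD, at no more than 17 counts in a library; the calls were lost in 13 and in 4 of 18 alternatives, and without KO CDAHFD replicate 3 the latter value was -2.45. Col23a1 lay between 0.138 and 0.928 CPM and was not called. Col7a1, the anchoring fibril chain of skin, was at 0.800 to 1.82 CPM in WT chow, 0.546 to 0.602 in WT CDAHFD, 0.170 and 0.598 in KO chow and 0.722 to 1.07 in KO CDAHFD. Col7a1 fell by 1.2 ± 0.38 in WT CDAHFD and 1.78 ± 0.47 in KO chow, where the value without KO chow replicate 1 was -2.91 and without replicate 2 was -1.13, the latter not called; the WT CDAHFD call was lost in 4 of 19 alternatives. Col28a1 had 6, 0, 1 and 0 counts in WT chow and 6, 26 and 18 in KO CDAHFD, its only call, and the log2 fold change of 2.64 became 4.83 without WT chow replicate 1 and lost its call in 7 of 18 alternatives.

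The chains of a fibril did not rise by equal factors, so that ratios between chains moved. Ratios of counts per kb of exon are given, and they depend on the exon length used, while the change of a ratio between groups does not. Col1a1 over Col1a2 was 1.03 ± 0.31 (SD, n = 4) in WT chow, 2.11 ± 0.056 (n = 3) in WT CDAHFD, 1.96 ± 0.071 (n = 2) in KO chow and 2.06 ± 0.051 (n = 3) in KO CDAHFD. WT chow did not reach the other groups, and with the longest transcript as the length the means were 0.490, 1.006, 0.933 and 0.984. Col3a1 over Col1a1 was 2.77 ± 0.55 in WT chow, 1.56 ± 0.075 in WT CDAHFD, 2.06 ± 0.038 in KO chow, with KO CDAHFD at 1.504 ± 0.074. For that ratio the KO chow libraries lay above all libraries of both CDAHFD groups, and within the range of WT chow only through WT chow replicate 1. That library was at 2.006, and the other WT chow libraries, at 3.305, 2.805 and 2.973, lay above both KO chow libraries (2.032 and 2.086). Col5a1 over Col5a2 went from 3.34 ± 0.99 to 1.21 ± 0.14, 1.15 ± 0.12 and 1.19 ± 0.040, so the 2 chains were near 1 to 1 in all groups but WT chow.

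Within type VI, Col6a3 over Col6a1 was 0.311 ± 0.064 in WT chow, 0.817 ± 0.070 in WT CDAHFD, 0.497 ± 0.0083 in KO chow, with KO CDAHFD at 0.930 ± 0.047. The KO chow libraries lay between WT chow and the CDAHFD groups. Col6a1 over Col6a2 changed less, from 3.13 ± 0.38 to 2.63 ± 0.074, 2.56 ± 0.20 and 2.53 ± 0.17, with every WT chow library above all others. Col4a1 over Col4a2 was 1.44 ± 0.27, 1.64 ± 0.17, 1.74 ± 0.16 and 1.39 ± 0.019, and WT chow overlapped each other group. The KO CDAHFD libraries (1.371 to 1.409) lay below all libraries of WT CDAHFD (from 1.512) and KO chow (from 1.626), which overlapped each other. No test was run on these ratios.

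**Figure D4:**
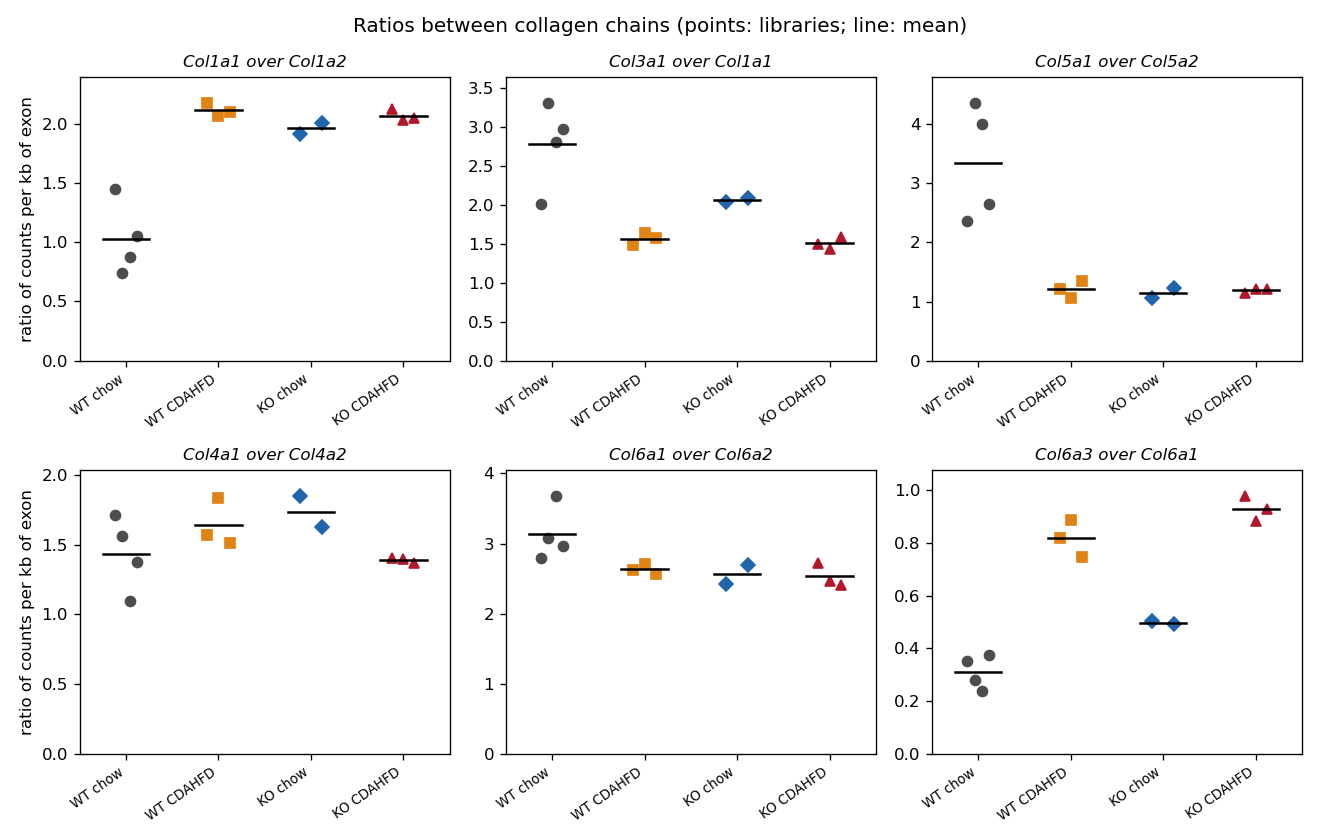
Ratios of counts per kb of exon for 6 pairs of collagen chains; points are libraries in the 4 groups and lines are group means. Col1a1 over Col1a2 is near 2 outside WT chow, Col5a1 over Col5a2 is near 1 outside WT chow, and Col6a3 over Col6a1 is ordered WT chow, KO chow, WT CDAHFD, KO CDAHFD by its means.

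For 14 chains the diet effect was more negative in KO than in WT livers, and for 3 it was more positive. The interaction is the diet effect in KO (KO CDAHFD minus KO chow) minus that in WT (WT CDAHFD minus WT chow), and it was called for these 17 of the 36 chains, where 23.1% of all genes were called (14.5% lower and 8.63% higher). Col1a1 rose by 4.86 on the log2 scale in WT and changed by 0.97 ± 0.53 (edgeR adjusted p = 0.3) in KO, and the interaction was -3.88 ± 0.68 (edgeR adjusted p = 0.00121), or -4.79 without WT chow replicate 1. The Col1a1 rise in KO was called without WT chow replicate 1, which is in neither KO group (0.99, edgeR adjusted p = 0.00497). It was also called in a fit of the 2 KO groups alone (0.98, edgeR adjusted p = 0.048). For Col3a1 the KO effect was 0.53 ± 0.41 and the interaction -3.69 ± 0.53 (edgeR adjusted p = 0.000312). KO chow already stood far above WT chow for both. The other negative calls were Col1a2, Col5a1, Col5a2, Col4a1, Col4a2, Col6a1, Col6a2, Col6a3, Col12a1, Col14a1, Col16a1 and Col22a1. Positive calls were Col27a1 (3.72 ± 0.23), Col18a1 (0.78 ± 0.21) and Col7a1 (2.46 ± 0.61), which were already lower in KO chow. The Col18a1 interaction was lost in 3 of 18 alternatives (scaling by size alone, the replicate block, and without KO chow replicate 1), the Col7a1 interaction without KO chow replicate 2 (and it was 3.59 without replicate 1), and the Col22a1 interaction in 14 of 17 alternatives. Col15a1 and Col9a3, which were called in neither direction in KO chow, had no called interaction.

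**Figure D5:**
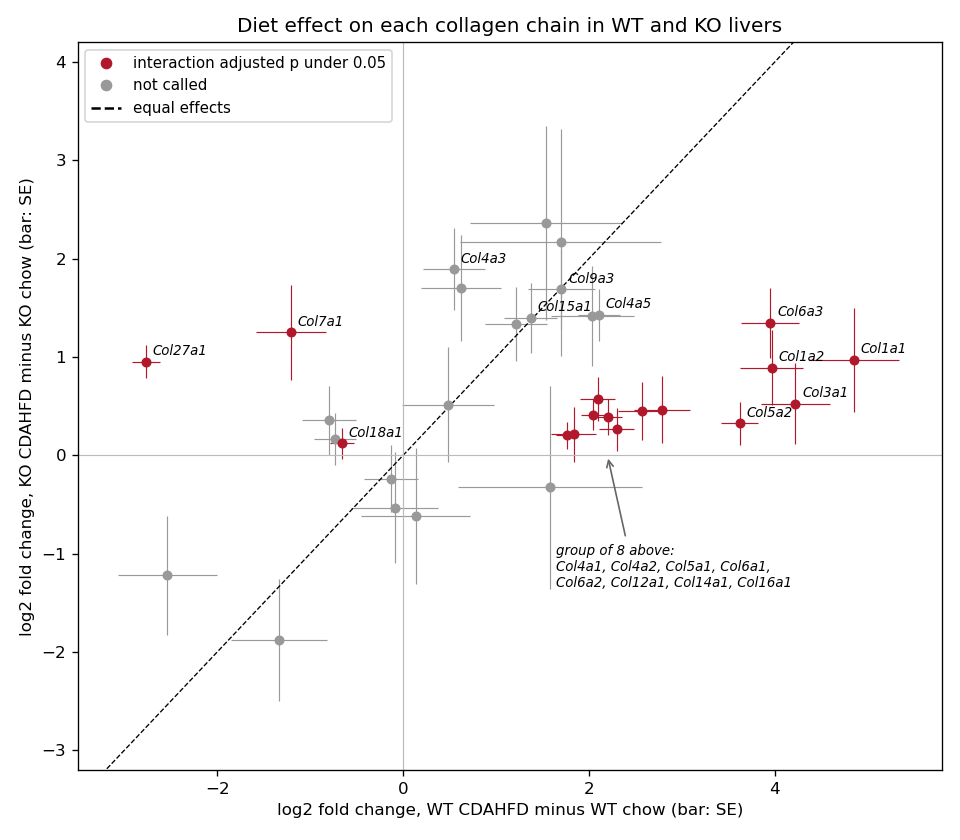
Diet effect in WT livers (horizontal axis, WT CDAHFD minus WT chow) and in KO livers (vertical axis, KO CDAHFD minus KO chow) for the tested chains, on the log2 scale with standard errors; red points have a called interaction and the dashed line marks equal effects. Col1a1, Col1a2, Col3a1, Col5a2 and Col6a3 lie between 3.62 and 4.86 in WT and between 0.33 and 1.35 in KO, while Col15a1 and Col9a3 lie near the line; Col9a2 and Col22a1 are not drawn.

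Within KO livers the diet raised 6 chains and lowered none, where 6.19% of all genes were called (3.76% higher). These were Col4a3 (1.89 ± 0.42), Col9a3 (1.69 ± 0.40), Col4a5 (1.43 ± 0.27), Col15a1 (1.4 ± 0.36), Col6a3 (1.35 ± 0.36) and Col27a1 (0.95 ± 0.17). Col9a3 was at 2.55 without KO chow replicate 1 and at 1.14 without replicate 2. Their edgeR adjusted p ran from 0.008 (Col27a1) to 0.0441 (Col6a3), and the KO CDAHFD libraries lay above both KO chow libraries for each. The count was 0 without KO chow replicate 2, 2 without KO chow replicate 1 or KO CDAHFD replicate 3, 3 without KO CDAHFD replicate 1, 10 with no filter on low counts and 9 with DESeq2. KO CDAHFD replicate 3 was the highest of its group for Col4a3, Col4a5, Col15a1, Col6a3 and Col27a1. By direction alone, 21 chains were higher and 2 lower with no overlap between the groups, where 19.9% and 19.2% of all genes were.

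On CDAHFD, no chain was called between KO and WT livers by edgeR, while 62 of 17358 genes (0.357%; 0.0864% higher and 0.271% lower) were. At an unadjusted p under 0.05 there were 7 chains, all higher in KO, the smallest adjusted p was 0.0935 (Col9a2), and DESeq2 called 2, Col4a4 and Col4a5. Col4a5 differed by 0.86 ± 0.23 and Col4a4 by 1.21 ± 0.32, and the 3 KO CDAHFD libraries lay above the 3 WT CDAHFD libraries for each. Col6a3 differed by 0.53 ± 0.30, Col1a1 by 0.4 ± 0.46 and Col3a1 by 0.35 ± 0.36. The interval for Col1a1 (2 SE on each side) ran from -0.52 to 1.31 and that for Col3a1 from -0.38 to 1.08. Of the 36 chains, 14 were higher in KO CDAHFD with no overlap and 0 were lower, where 9.47% and 11.3% of all genes were. The median difference was 0.36, beside 0.01 over all genes.

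Between KO chow and WT CDAHFD, the loss of PPARα alone and the diet alone, edgeR called no chain, while 6.12% of all genes were called (2.71% higher and 3.42% lower). At an unadjusted p under 0.05 there were 3 chains higher and 5 lower in KO chow, the smallest adjusted p was 0.0597 (Col22a1), DESeq2 called 2 lower (Col15a1 and Col27a1), and a fit of these groups alone called 2 higher and 5 lower. Col1a1 differed by -0.58 ± 0.52, Col3a1 by -0.18 ± 0.41 and Col15a1 by -0.99 ± 0.35, with intervals from -1.62 to 0.47, from -0.99 to 0.64 and from -1.69 to -0.28. Without WT chow replicate 1, which is in neither group, 2 chains were called, both lower: Col1a1 (-0.58) and Col6a3 (-0.82). Both were among the chains called lower in the fit of these groups alone (-0.59 and -0.83). With no overlap, 15 chains were lower and 3 higher in KO chow, where 24.1% and 24.5% of all genes were. The 2 KO chow libraries limit this comparison.

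Genes that modify, secrete, trim and cross-link collagen were followed as a list of 31, of which 29 were tested. In WT CDAHFD 16 were higher and 5 lower, in KO chow 15 and 3, and in KO CDAHFD 16 and 4, where 51.1%, 39% and 52.4% of all genes were called. The medians of the list were 1.28, 0.97 and 1.09, beside -0.05, 0.00 and -0.04 over all genes. The largest increase was that of Lox, the lysyl oxidase that starts cross-links, at 1.32, 0.252, 0.133 and 0.138 CPM in WT chow, 11.8, 12.7 and 8.72 in WT CDAHFD, 7.94 and 5.72 in KO chow, and 11.7, 11.8 and 16.3 in KO CDAHFD. Lox was below 1.4 CPM in each WT chow library and above 5.7 in all others, and it rose by 4.6 ± 0.50 (edgeR adjusted p = 9.22e-06), 3.9 ± 0.54 (edgeR adjusted p = 0.000102) and 4.86 ± 0.51 (edgeR adjusted p = 5.42e-06), or by 5.95, 5.24 and 6.23 without WT chow replicate 1. Plod2, a lysyl hydroxylase of fibrotic cross-links, was at 1.203, 0.881, 0.634 and 0.642 CPM in WT chow, 6.04, 8.31 and 5.62 in WT CDAHFD, 6.23 and 5.602 in KO chow, and 8, 8.07 and 11.01 in KO CDAHFD. Adamts2, which removes the amino-terminal propeptide of procollagen, was at 9.01, 4.69, 4.001 and 3.71 CPM in WT chow, 44.6, 42.6 and 38.1 in WT CDAHFD, 35.6 and 27.5 in KO chow, and 44.8, 45.02 and 63.1 in KO CDAHFD. Plod2 rose by 2.98 ± 0.24, 2.81 ± 0.26 and 3.42 ± 0.24, and Adamts2 by 2.96 ± 0.26, 2.56 ± 0.28 and 3.25 ± 0.26.

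The largest decreases of the list were smaller. Bmp1, which removes the carboxy-terminal propeptide, was at 154, 202, 162 and 177 CPM in WT chow, 96.6, 91.02 and 97.2 in WT CDAHFD, 77.5 and 85.8 in KO chow, and 109, 91.3 and 82.01 in KO CDAHFD, and fell by 0.87 ± 0.12, 1.09 ± 0.14 and 0.88 ± 0.12. By library size alone the fall of Bmp1 in KO CDAHFD was not called. Pcolce2, an enhancer of that cut, was at 3.92, 4.501, 5.202 and 2.89 CPM in WT chow, 1.29, 1.46 and 1.09 in WT CDAHFD, 4.05 and 5.75 in KO chow, and 1.77, 2.35 and 1.12 in KO CDAHFD. Set against WT chow, the fall of Pcolce2 was called in both CDAHFD groups, by 1.69 ± 0.28 for WT CDAHFD and by 1.25 ± 0.28 for KO CDAHFD. Pcolce2 was not called in KO chow, where both libraries lay among or above those of WT chow. Every KO CDAHFD library was also below both KO chow libraries. Colgalt2, a collagen galactosyltransferase, fell by 1.75 ± 0.50 in WT CDAHFD, its only call against WT chow, with libraries at 0.246, 0.447 and 0.240 CPM against 0.367 to 1.45.

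Of 10 genes of collagen receptors 9 were tested, WT CDAHFD and KO CDAHFD each had 6 higher and KO chow had 5, and none was lower, where 26.1%, 26.9% and 22% of all genes were higher and 25%, 25.4% and 17% lower. Ddr1, a receptor kinase that binds collagen, was at 2.83, 1.73, 1.83 and 1.651 CPM in WT chow, 35.1, 33.8 and 29.9 in WT CDAHFD, 20.1 and 19.01 in KO chow, and 34.1, 31.2 and 36.3 in KO CDAHFD. Every Ddr1 library outside WT chow was at least 19.0 CPM, and the changes were 4.03 ± 0.17 (edgeR adjusted p = 6.17e-09), 3.28 ± 0.17 (edgeR adjusted p = 8.51e-08) and 4.07 ± 0.17 (edgeR adjusted p = 5.16e-09). Mrc2, an uptake receptor for collagen, was at 2.25, 1.35, 1.17 and 1.05 CPM in WT chow, 22.97, 21.2 and 19.2 in WT CDAHFD, 13.5 and 8.003 in KO chow, and 24.3, 23.8 and 32.4 in KO CDAHFD, and Itga2, the alpha subunit of an integrin for collagen, was at 0.272, 0.0944, 0.133 and 0.183 CPM in WT chow, 2.38, 1.98 and 2.38 in WT CDAHFD, 1.17 and 0.9701 in KO chow, and 2.04, 2.38 and 3.42 in KO CDAHFD. Mrc2 rose by 3.85 ± 0.25, 2.88 ± 0.27 and 4.2 ± 0.25 and Itga2 by 3.73 ± 0.33, 2.66 ± 0.37 and 3.95 ± 0.33.

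Marker genes of cells that the samples could hold were counted in the same way, beside the shares of all genes called, which were 26.1% higher and 25% lower in WT CDAHFD, 22% and 17% in KO chow, and 26.9% and 25.4% in KO CDAHFD. Of 12 stellate cell genes 7 were higher and 1 lower in WT CDAHFD, 8 and 0 in KO chow and 9 and 1 in KO CDAHFD, and they summed to 268 to 381.5 CPM in WT chow, 428 to 506.5 in WT CDAHFD, 476 to 528 in KO chow and 446 to 479.6 in KO CDAHFD. Of 8 portal fibroblast genes 5, 6 and 6 were higher, with sums of 8.67 to 28.0 CPM in WT chow, 62.4 to 64.6 in WT CDAHFD, 54.9 to 77.1 in KO chow and 90.1 to 166 in KO CDAHFD. Of 5 activated myofibroblast genes 0, 0 and 1 (Tagln) were higher, with sums of 3.43 to 52.2, 14.0 to 17.7, 12.7 to 34.1 and 11.6 to 33.8 CPM. The sum of 52.2 CPM was that of WT chow replicate 1. The sums of the other WT chow libraries, 3.43, 3.64 and 3.94 CPM, lay below those of all libraries outside WT chow. Tagln, with 349 counts summed over the 12 libraries, overlaps Pcsk7, with 14958, on the other strand, and reads of these genes cannot be fully told apart. The same limit holds for the portal fibroblast genes Entpd2, Mfap4 and Gli1, which share exon with Npdc1, Mapk7 and Arhgap9, genes of more counts. Cnn1 and Actg2 were at 0 in at least 1 library.

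Of 7 cholangiocyte genes 7, 6 and 7 were higher, with sums of 8.37 to 22.0, 53.0 to 64.6, 29.4 to 44.5 and 84.3 to 106 CPM. Of 8 macrophage genes 6, 7 and 6 were higher, with sums of 335 to 609, 1516 to 2097, 1159 to 1385 and 1421 to 1686 CPM. Of 6 mesothelial genes 2, 1 and 2 were higher, near the share of all genes, with sums of 2.63 to 6.93, 7.17 to 13.8, 4.44 to 9.93 and 7.83 to 9.87 CPM, and Upk1b was at 0 in at least 1 library. Of 8 endothelial genes 4 were lower in each CDAHFD group, and 1 was higher in KO chow, with sums of 192 to 299, 136 to 191, 186 to 273 and 133 to 249 CPM. Of 8 hepatocyte genes 8, 6 and 8 were lower, with sums of 96500 to 112100, 49010 to 58500, 78480 to 90360 and 46000 to 60930 CPM. The part of these cell types in the collagen changes was not tested.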

How the data were processed

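Liver RNA of 12 mice was sequenced from poly-A selected, non-directional libraries, and the deposited values are raw counts of reads per gene that the authors made for each library. Per the labels and the study's methods, reads were checked with FastQC 0.11.5 and aligned with STAR 2.7.3a to GRCm38, and DESeq2 was used downstream. The counting program and annotation release are not given in the sources used here. Without strand, reads from overlapping genes on opposite strands cannot be told apart. Gene IDs were matched to GENCODE M21 (52081 of 55357, 94.08%) for symbols, positions and exon lengths.

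Counts were analysed with edgeR 4.0.16 in R 4.3.3. Genes with low counts were removed with filterByExpr (17358 kept), libraries were scaled by TMM (factors 0.729 to 1.258), and means of the 4 groups were fitted over all 12 libraries with the quasi-likelihood test. Comparisons and the interaction of genotype and diet were adjusted by Benjamini-Hochberg over the genes tested, with calls at an adjusted p under 0.05. Errors of fold changes are standard errors from the fit. The fit was tested on simulated data with known fold changes. Depth was 29906785 to 43551003 counts per library. Intervals are 2 standard errors of the fit on each side and include the spread between libraries, while floors of 3 counts cover counting error only. CPM used TMM-scaled library sizes, and length used the exon union or the longest transcript. Alternatives were another scaling, no filter, other tools, a replicate block, fits of the compared groups alone and leaving out each library.

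The members and gene lists were chosen with earlier results of these data known. All 44 chains are accounted for by class. Values in every library are given for the 25 called chains of highest mean CPM, and the 6 other called chains are given by range or counts. From the lists of processing genes and receptors, the 3 called in WT CDAHFD with the largest increases and decreases are named. Promoter sequences were copied from RefSeq (GRCm38.p6). The values of 1 marker gene are not reported here. KO chow has 2 libraries. Replicate numbers of different groups were not used as pairs in the reported tests.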

Additional observations from a re-analysis of the deposited data

Results flagged for a closer look

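In WT chow, 1 library lay far from the other 3, by Dixon's ratio of the gap to the range, for 11 of the 36 tested chains, where chance gives about 1 in 20 groups. For 10 of them it was the high value of WT chow replicate 1: Col1a1 at 20.3 CPM, Col1a2 at 26.7, Col3a1 at 61.0, Col6a2 at 8.58, Col6a3 at 12.2, Col4a5 at 2.83, Col4a6 at 1.40, Col6a5 at 0.971, Col6a6 at 1.86 and Col28a1 at 0.233 CPM. The same library held the highest sum of activated myofibroblast genes in its group. The remaining one was Col9a2 at 0.0334 CPM in WT chow replicate 3, which is a single count beside libraries at 0, so that its ratio is 1 by construction. The part of the myofibroblast genes in these values was not tested.

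The diet effect differed between KO and WT livers by edgeR's test of the interaction, with a lower effect in KO, for the fibrillar chains Col1a1 (-3.88), Col1a2 (-3.07), Col3a1 (-3.69), Col5a1 (-1.82) and Col5a2 (-3.29), for the beaded filament chains Col6a1 (-2.13), Col6a2 (-2.32) and Col6a3 (-2.61), and for the type IV chains Col4a1 (-2.03) and Col4a2 (-1.52), on the log2 scale. The FACIT chains Col12a1 (-1.62), Col14a1 (-1.56), Col16a1 (-1.63) and Col22a1 (-5.25) did so too, the last from 0 counts in WT chow, so that its fitted value depends on the prior count. The effect was higher in KO for Col27a1 (3.72), Col7a1 (2.46) and Col18a1 (0.78). All 17 rest on 2 KO chow libraries.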

How the results depend on the processing

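No value reported for a chain or a processing gene changed direction under any alternative. Over all genes, scaling by library size alone moved the higher share of calls as given in the report. The number of chains called in either direction together moved by over 1.5 times in the comparisons with few calls, and the lower calls against WT chow moved as given in the report. Between KO CDAHFD and WT CDAHFD it was 0 in the reported fit, 2 with no filter on low counts, 1 with the quasi-likelihood defaults of edgeR 4 and 2 with DESeq2. Between KO CDAHFD and KO chow it was 6, and 10 with no filter, 2 with a replicate block, 3 with the compared groups alone, and 0 to 9 when 1 library was left out. Between KO chow and WT CDAHFD it was 0, and 2 with library size only, 3 with no filter, 1 with the edgeR 4 defaults, 7 with the compared groups alone, 2 with DESeq2, and 0 to 2 when 1 library was left out. The cause was not tested. The replicate block paired libraries by number. Same-numbered libraries correlated at -0.242 to 0.266 in their deviations from the group means over 15 pairs, 3 of them over 0.1. Deviations from the mean of a small group are tied to each other, and those of the 2 KO chow libraries are mirror images. These correlations therefore cannot decide whether same-numbered libraries share more than a number. With the block, 18 chains were higher and 6 lower in WT CDAHFD, 17 and 6 in KO chow, and 22 and 5 in KO CDAHFD. KO CDAHFD replicate 3 was the highest library for many chains, and without it these counts were 19 and 7, 17 and 5, and 20 and 6. Depth limits Col9a2, Col22a1, Col25a1 and Col28a1, which had at most 29 counts in a library.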
